A study of Mus musculus with 2 samples.

Results

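Interferon beta is made by a short chain of gene products, and 8 genes of that chain are described here. They are Ifnb1, which encodes interferon beta, the receptor genes Ifnar1 and Ifnar2, the adaptor gene Ticam1, the kinase gene Tbk1, and the transcription factor genes Irf3, Irf5 and Irf1. The 8 genes were found by symbol among the 31053 genes of both count matrices, each as 1 row. They were selected on their measured UMI levels in these same libraries, so those levels and the differences between libraries are given as descriptions with no test.

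The data are single-cell RNA-seq counts from the lamina propria of the colon, the immune-cell-rich tissue beneath the epithelium, with 1 library labelled wild type and 1 labelled Lncly6c (1700016P04Rik)-deficient. Both came from male C57BL/6 mice aged 6-8 weeks under specific pathogen-free housing, and no stimulus is named. In the deficient line the long non-coding RNA gene was removed as a whole by CRISPR-Cas9 cuts on either side of it in zygotes, with repair by end joining. How many mice gave each library is not stated, and each group is 1 library, so every interval below covers counting error only. Sample labels and file names disagree on which library is which genotype, and the deleted gene had 0 UMIs (unique molecules counted) in both libraries, so it checks neither. Groups follow the labels, as "wild-type-labelled" and "deficient-labelled", and every direction would swap if the file names were right. Where a pair of values is given without further words, the wild-type-labelled value comes first. After filtering, 2604 wild-type-labelled cells with a median of 6205 UMIs and 5888 deficient-labelled cells with a median of 7847.5 UMIs were kept, and 7 barcode sequences occurred in both. Cells were sorted in silico by marker gates, sets of marker genes whose mean score had to stand clear of every other set. In each of the 13 named gates used below, more of the 10 leading genes belonged to its own marker list than to any other list. The gates were drawn on those same markers, so this is a description and not a test of them.

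Type I interferon is a first-line antiviral and immunoregulatory cytokine. Receptors for double-stranded RNA and lipopolysaccharide signal through the adaptor encoded by Ticam1 (also called TRIF) to the kinase encoded by Tbk1, which phosphorylates the factor encoded by Irf3. That factor, with NF-kB, switches on Ifnb1, while the factors encoded by Irf5 and Irf1 act on inflammatory and interferon-responsive genes. Secreted interferon beta binds a receptor made of the Ifnar1 and Ifnar2 proteins and induces the interferon-stimulated genes, such as Ifit1, Rsad2 and Isg15, whose products restrict viral replication. In the gut, mononuclear phagocytes are a known source of interferon beta at steady state.

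In GRCm38 (mm10), Ifnb1 lies at chr4:88522025-88522774 on the minus strand and has 1 exon. Ifnar2 (chr16:91372783-91405589) and Ifnar1 (chr16:91485238-91507441) are neighbours on the plus strand, 79648 bases apart. Ifnar2 overlaps the annotated gene Gm21970 on the same strand, and how its reads were divided is not given in the sources used here. Ticam1 lies at chr17:56269319-56276786, Tbk1 at chr10:121546455-121586787, Irf3 at chr7:44997648-45002848, Irf5 at chr6:29526625-29541871 and Irf1 at chr11:53770014-53778374.

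Promoter stretches are shown for Ifnb1, for Irf1, and for Ifit1 and Rsad2, which were among the leading genes of the Ifnb1-holding cells described further on. Each covers bases 180 to 61 before the RefSeq start (GRCm38.p6), 5′ to 3′ on the gene's strand. Capitals mark matches to 4 motifs searched on both strands, namely AANNGAAA (bound by interferon regulatory factors), GAAANNGAA (core of the interferon-stimulated response element), GGANNTTCC (NF-kB) and TTCNNNGAA (STAT dimers, GAS).
Ifnb1 (chr4:88522855-88522974, minus strand): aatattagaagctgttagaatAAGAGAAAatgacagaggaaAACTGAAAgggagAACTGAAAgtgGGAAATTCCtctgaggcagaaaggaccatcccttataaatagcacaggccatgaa
Irf1 (chr11:53769834-53769953, plus strand): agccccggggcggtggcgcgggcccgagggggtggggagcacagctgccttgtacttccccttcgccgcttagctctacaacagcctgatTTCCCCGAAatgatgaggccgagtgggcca
Ifit1 (chr19:34640709-34640828, plus strand): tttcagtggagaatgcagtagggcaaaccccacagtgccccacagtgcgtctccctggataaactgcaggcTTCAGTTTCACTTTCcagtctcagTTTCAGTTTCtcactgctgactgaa
Rsad2 (chr12:26456513-26456632, minus strand): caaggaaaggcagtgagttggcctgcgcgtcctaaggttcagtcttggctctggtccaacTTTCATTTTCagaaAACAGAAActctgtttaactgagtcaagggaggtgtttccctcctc

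The Ifnb1 stretch held 3 AANNGAAA matches, beginning 159, 139 and 126 bases before the start, and the NF-kB match GGAAATTCC at 115 bases, which reads the same on both strands and was counted once. Ifit1 and Rsad2 held matches to AANNGAAA and GAAANNGAA that overlap each other, and Irf1 held the GAS match TTCCCCGAA at 90 bases. A further Irf1 promoter, not shown, held no match to the 4 motifs. Not every leading gene had such matches. Ifit2, the first in wild-type-labelled holding macrophages, held no AANNGAAA or GAAANNGAA match in its promoters and is not shown. The stretches of the members Ifnar1, Ifnar2, Irf3, Irf5, Tbk1 and Ticam1 held no match to the 4 motifs and are not shown either. Outside the stretch, Ifnar1 and Ifnar2 held GAS matches at 5 and 214 bases. Over the same 120 bases of 32851 promoters, 10.6% held AANNGAAA, 3.32% GAAANNGAA, 1.74% GGANNTTCC and 3.34% TTCNNNGAA. A match is a description of the letters and not evidence of binding.

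Ifnb1 UMIs were found in 137 wild-type-labelled cells (5.26% of 2604, 95% Clopper-Pearson interval 4.44 to 6.19%) and in 173 deficient-labelled cells (2.94% of 5888, 2.52 to 3.40%). Those cells held 801 and 386 Ifnb1 UMIs. The transcript was unevenly spread. In the wild-type-labelled library 25 cells with 10 or more Ifnb1 UMIs carried 66.5% of the total, and the highest single cell held 109. In the deficient-labelled library 4 cells reached 10 UMIs and carried 58 of the 386, and the highest cell held 21. Cells with exactly 1 Ifnb1 UMI were 40.9% of the Ifnb1-holding cells in the first library and 61.3% in the second.

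**Figure D1:**
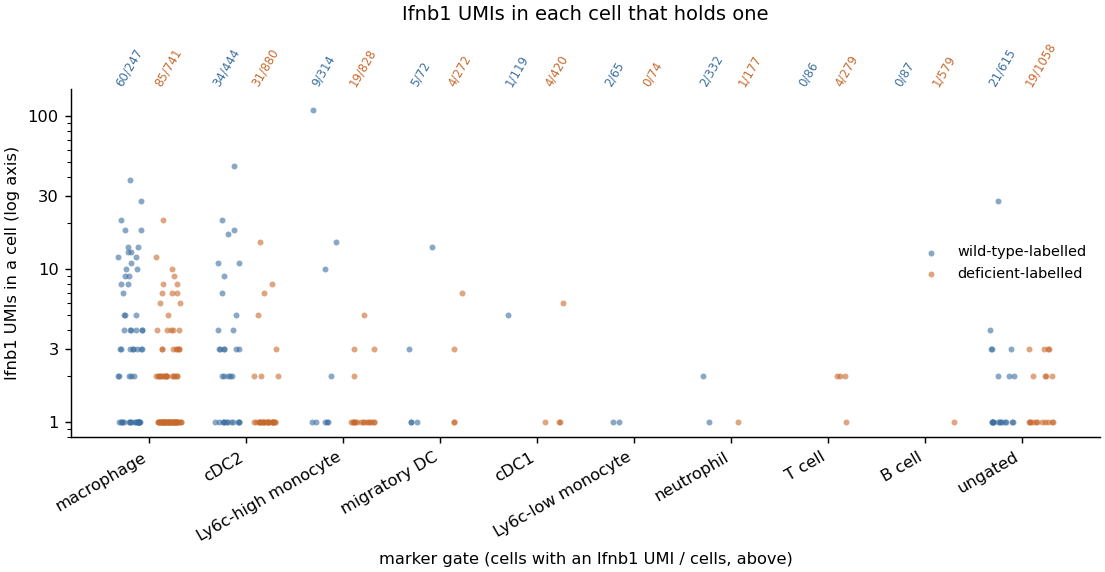
Each point is 1 cell with at least 1 Ifnb1 UMI, by marker gate (x axis) and library (colour), with its Ifnb1 UMIs on a log axis and the number of such cells over all cells of the gate printed above. Macrophage-gate and cDC2-gate cells make up most points, 1 wild-type-labelled monocyte-gate cell stands at 109 UMIs, and the lymphocyte gates hold at most 4 points.

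By cell type, the macrophage gate (C1qa, C1qb, C1qc, Apoe and related markers) was the main holder. In the wild-type-labelled library 60 of 247 macrophage-gate cells held 365 Ifnb1 UMIs, which is 24.3% of the cells (19.1 to 30.1%) and 155.6 CPM (counts per 1000000 UMIs; 95% Poisson interval 140.0 to 172.4). In the deficient-labelled library 85 of 741 cells held 224 UMIs, which is 11.5% (9.27 to 14.0%) and 31.3 CPM (27.3 to 35.7). The intervals do not overlap on either measure, and the Ifnb1-holding macrophages of the wild-type-labelled library also held more each, with a mean of 6.08 against 2.64 UMIs. These gates gave 45.6% and 58.0% of the Ifnb1 UMIs of their libraries.

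The cDC2 gate, conventional dendritic cells marked by Cd209a, Clec10a and Mgl2, came next by number of cells. It held Ifnb1 UMIs in 34 of 444 wild-type-labelled cells (194 UMIs, 28.4 CPM, 24.6 to 32.7) and in 31 of 880 deficient-labelled cells (67 UMIs, 6.08 CPM, 4.71 to 7.72). The share of cells was 7.66% (5.36 to 10.5%) against 3.52% (2.41 to 4.96%), again without overlap. Median depth was 14571.5 and 11942.5 UMIs per cell. Cells were also split by depth into 3 equal classes within each library. From shallowest to deepest, the shares were 2.70%, 9.46% and 10.8% against 2.73%, 3.07% and 4.76%. The lower deficient-labelled share was thus seen in the middle and deepest classes and not in the shallowest.

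In Ly6c-high monocytes, the blood-derived precursors of gut macrophages, the summed level rested on 1 cell. The gate held 141 Ifnb1 UMIs in 9 of 314 wild-type-labelled cells and 28 UMIs in 19 of 828 deficient-labelled cells, or 46.2 and 4.35 CPM. A single wild-type-labelled cell carried 109 of the 141. Without the highest cell of each library the levels were 10.5 and 3.58 CPM. The shares of cells, 2.87% (1.32 to 5.37%) and 2.29% (1.39 to 3.56%), overlapped.

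Other gates held few Ifnb1 UMIs. Migratory dendritic cells, which carry antigen to lymph nodes, held 20 UMIs in 5 of 72 wild-type-labelled cells and 12 UMIs in 4 of 272 deficient-labelled cells. cDC1 cells, the cross-presenting dendritic cells, held 5 UMIs in 1 of 119 cells and 9 UMIs in 4 of 420. Neutrophils held 3 and 1 UMIs. Plasmacytoid dendritic cells, the classical high producers of interferon alpha, were too rare to describe, with 8 UMIs in 1 of 3 cells and 0 UMIs in 5 cells. That 1 cell lay in the cluster led by Mmp13 and C1qa, with macrophage as its next-best gate, 8 C1qa UMIs and 0 UMIs of the plasmacytoid marker Siglech. Cells that passed no gate held 60 UMIs in 21 of 615 cells and 31 UMIs in 19 of 1058.

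The B cell and T cell gates were used as a level of stray UMIs. Plasma cells and NK cells or ILC1 were not used for it. In the deficient-labelled library they held Ifnb1 in 2 of 89 and 1 of 108 cells. The next-best gates of those 2 plasma-gate cells were macrophage and Ly6c-high monocyte. B cells of the deficient-labelled library held Ifnb1 in 1 of 579 cells (0.173%, 0.00437 to 0.958%), at a median of 3527.5 UMIs in the cells without it, and those of the wild-type-labelled library in 0 of 87, which allows a share of up to 3.45%. T cells held it in 4 of 279 deficient-labelled cells and in 0 of 86 wild-type-labelled cells. All 4 lay in a cluster led by Ctla4, Icos and Trbc2 with a median of 14706.5 UMIs per cell, and their next-best gate was macrophage or cDC2. The 221 T cells outside that cluster, with a median of 4731 UMIs, held 0, which allows up to 1.36%. The cDC1 and neutrophil shares, 0.840% and 0.602% in the wild-type-labelled and 0.952% and 0.565% in the other library, lay within these limits, so these shares could not be told from the lymphocyte level, though cDC1 cells were deeper than lymphocytes. The cDC1 UMIs sat in few cells, as all 5 of the wild-type-labelled library were in 1 cell, and 6 of the 9 of the other were in 1 cell with 25 C1qa UMIs that clustered with the macrophages. The macrophage-gate and cDC2-gate shares of both libraries lay above the limits of B cells and of T cells outside that cluster, in cells of greater depth. That T cell limit leaves out every T cell that held Ifnb1. Inside the cluster 4 of 58 deficient-labelled T cells held it (6.90%, 1.91 to 16.7%), which overlaps the macrophage-gate and cDC2-gate shares of that library. The monocyte-gate share of the deficient-labelled library, 1.39 to 3.56%, lay above the B cell interval and the T cell limit of 1.36%. It overlapped the Clopper-Pearson interval of the same 221 T cells, 0 to 1.66%, so it was not separated from the T cell level. The wild-type-labelled monocyte-gate share, 1.32 to 5.37%, overlapped both limits of its own library.

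The macrophage gates of the libraries were of similar depth, with medians of 8240 and 7893 UMIs per cell, and their median share of mitochondrial UMIs was 4.78% and 4.34%. With each cell thinned to 1000 UMIs, 11.9% (8.07 to 16.8%) of 235 and 3.32% (2.14 to 4.91%) of 722 macrophage-gate cells still held Ifnb1, leaving out 12 and 19 shallower cells. With the cells of the gate split by depth into 3 equal classes within each library, the shares were 20.7%, 30.5% and 21.7% from shallowest to deepest in the wild-type-labelled library. They were 7.69%, 13.4% and 13.4% in the deficient-labelled one, lower in each class.

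**Figure D2:**
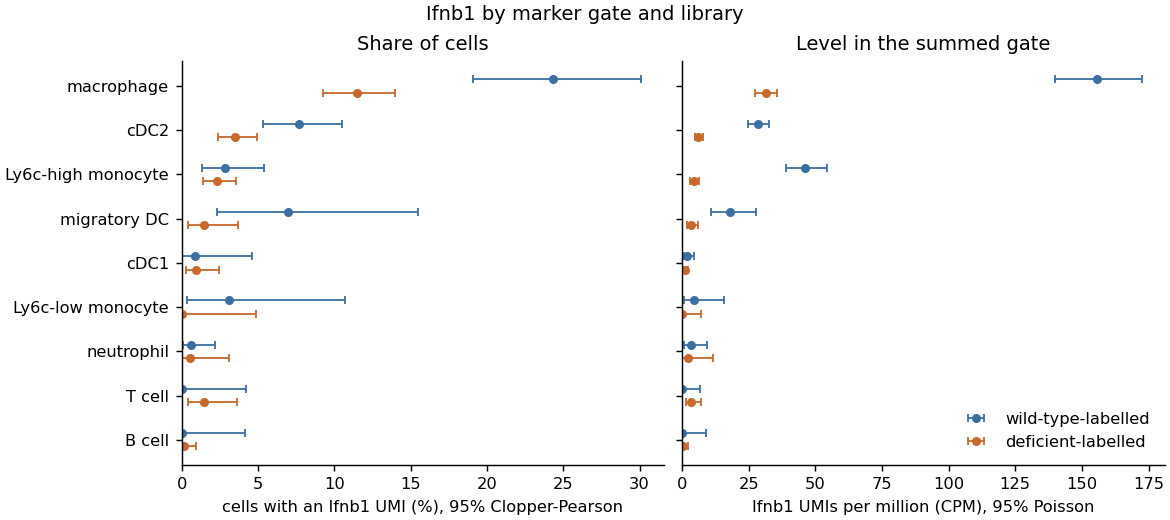
Share of cells with an Ifnb1 UMI (left, with 95% Clopper-Pearson intervals) and Ifnb1 level in the summed gate (right, CPM with 95% Poisson intervals), by marker gate and library. The macrophage gate is highest in both panels, at 24.3% and 155.6 CPM in the wild-type-labelled library and at 11.5% and 31.3 CPM in the deficient-labelled one.

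Within the gates, Ifnb1 followed finer groups of cells obtained by Leiden clustering, named here by their leading genes. In the macrophage gate, the cluster led by Mmp13, C1qa, C1qc and Pf4 held Ifnb1 in 46 of 152 wild-type-labelled cells and 63 of 466 deficient-labelled cells. Macrophage-gate cells that clustered with the monocytes led by Chil3, F10 and Ly6c2 held it in 7 of 51 and 7 of 136. In the deficient-labelled library 2 smaller groups of macrophage-gate cells had higher shares than the 13.5% of the C1qa cluster. Those in the cluster led by Mt2, Mgl2 and Ear2 held it in 8 of 44 (18.2%). Those in the cluster led by Ctla4, Icos and Trbc2 held it in 6 of 27 (22.2%). In the wild-type-labelled library these groups had only 17 and 7 cells. In the cDC2 gate the difference between clusters was wider. The cluster led by Mt2, Mgl2, Ear2 and Ccl17 held Ifnb1 in 29 of 125 and 25 of 269 cells, whereas the cluster led by Plet1, Tbc1d4 and Il1r2 held it in 2 of 205 and 1 of 343. A small cluster led by Arg1, Rsad2 and Irf7 contained the monocyte-gate cell with 109 Ifnb1 UMIs and a macrophage-gate cell with 38. The latter held 0 C1qa UMIs.

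Between the libraries, Ifnb1 was lower in the deficient-labelled library in each gate where it had 50 or more UMIs. The log2 ratio, taken as deficient-labelled CPM over wild-type-labelled CPM, was -2.31 (95% interval -2.56 to -2.07) in macrophages and -2.23 (-2.65 to -1.82) in cDC2, where a stricter gate margin gave -3.39 (-4.14 to -2.71). In Ly6c-high monocytes it was -3.41 (-4.05 to -2.82), which became -1.56 (-2.40 to -0.74) without the highest cell of each library and -0.80 (-1.65 to 0.08) without the cluster led by Arg1, Rsad2 and Irf7. Over all kept cells it was -2.31 (-2.49 to -2.14). Markers of other cell types moved too. In the macrophage gate the summed Ly6c-high monocyte markers were 1204.0 and 805.3 CPM, migratory dendritic cell markers 294.5 and 557.8 CPM, neutrophil markers 305.2 and 529.4 CPM and plasma cell markers 156.0 and 565.6 CPM, beside 14154.0 and 15153.1 CPM for its own markers. In the cDC2 gate migratory dendritic cell markers were 708.5 and 1188.8 CPM, beside 2235.7 and 2304.3 CPM for its own. Their part in the Ifnb1 ratios was not tested.

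The other 7 genes mostly stayed within 1.5-fold between the libraries. In each of the macrophage, cDC2 and Ly6c-high monocyte gates 1 of 8 genes, Ifnb1, was past 1.5-fold. For all measured genes with 50 or more UMIs, 14.4% in macrophages, 10.7% in cDC2 and 13.7% in Ly6c-high monocytes were past that fold in either direction. In cDC1 1 of 7 measured genes was past it (11.9% of all genes), in neutrophils 1 of 5 (30.5%), and over all cells 1 of 8 (18.0%). Over the 5 gates this made 5 of 36 measured values, 4 lower and 1 higher, a share close to that of all genes. The median log2 ratio of all genes lay between -0.01 and 0.03 in the 5 gates and was 0.07 over all cells.

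**Figure D3:**
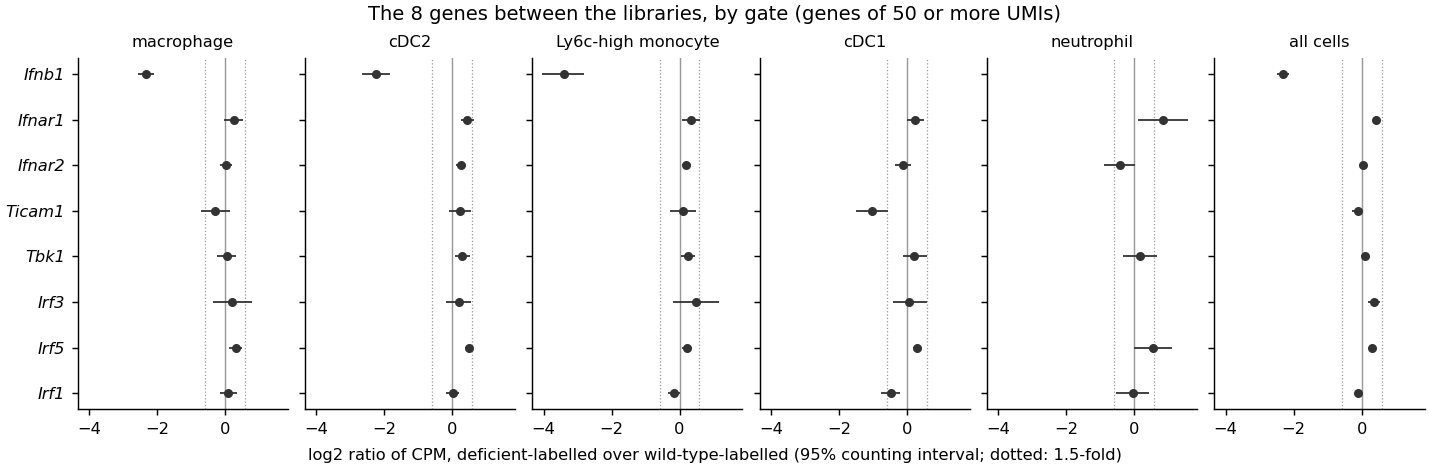
Log2 ratio (deficient-labelled CPM over wild-type-labelled CPM) for each of the 8 genes with 50 or more UMIs in a gate, with 95% counting intervals and dotted lines at 1.5-fold. Ifnb1 lies to the left in the 3 gates where it was measured, Ticam1 in cDC1 at -1.04 and Ifnar1 in neutrophils at 0.84, and the other points lie between the dotted lines.

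The receptor genes had partly opposite distributions over cell types. Ifnar2, whose product carries most of the interferon affinity, was highest in Ly6c-high monocytes, at 201.8 CPM (186.2 to 218.4) and 231.6 CPM (220.0 to 243.6). Ly6c-low monocytes, the patrolling subset, followed at 176.2 and 183.4 CPM, and macrophages had 150.5 and 154.6 CPM. Lymphocytes were lowest, with B cells at 39.6 and 40.9 CPM and T cells at 35.5 and 60.9 CPM; of the deficient-labelled T-gate cells 58 of 279 lay in the mixed cluster led by Ctla4, whose part was not tested. Neighbours in this order mostly overlap, but the monocyte and lymphocyte ends do not.

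Ifnar1, the signalling chain bound by the kinase Tyk2, ran partly the other way and over a narrower range. Its highest gates were T cells (104.7 CPM, 79.7 to 135.0) in the wild-type-labelled library, and B cells (105.3 CPM, 93.0 to 118.8) in the deficient-labelled one. Wild-type-labelled B cells had 56.9 CPM (36.1 to 85.4), which overlaps the Ly6c-high monocytes of that library (44.6 to 61.2). cDC1 had 72.8 and 86.7 CPM, and Ly6c-high monocytes 52.4 and 65.8 CPM. Across the 22 sums of a gate and library the Pearson correlation of log2(CPM + 10) between the receptor genes was -0.63, as a description of points that share 2 libraries.

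Between libraries the receptor genes were close in the phagocyte gates. Ifnar2 had log2 ratios of 0.04 (-0.13 to 0.22) in macrophages, 0.27 (0.12 to 0.42) in cDC2 and 0.20 (0.06 to 0.34) in Ly6c-high monocytes. Ifnar1 had 0.26 (-0.01 to 0.54), 0.45 (0.27 to 0.63) and 0.33 (0.06 to 0.60). In neutrophils Ifnar1 was higher in the deficient-labelled library, at 37.8 against 67.5 CPM (log2 ratio 0.84, 0.11 to 1.57), on 35 and 33 UMIs, and as a mean over cells the log2 ratio was 0.36, inside 1.5-fold. The summed neutrophil markers of that gate were 79386.5 and 48055.9 CPM and the summed macrophage markers 767.2 and 1558.1 CPM, and their part in the Ifnar1 ratio was not tested.

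Ticam1, the adaptor gene, was low in every gate. Macrophages had 28.6 and 23.3 CPM, Ly6c-high monocytes 27.9 and 29.6 CPM and cDC2 18.8 and 22.0 CPM, with overlapping intervals between most neighbours. NK cells or ILC1, plasma cells and fibroblasts had too few wild-type-labelled cells for a level. Their place in the order therefore cannot be compared between the libraries. In the deficient-labelled library NK cells or ILC1 came next after Ly6c-high monocytes, at 24.0 CPM. Plasma cells and B cells (13.5 CPM, 9.36 to 18.9) stood above cDC1 there, with overlapping intervals. Fibroblasts (7.95 CPM) and T cells (9.11 CPM, 5.48 to 14.2) were lowest. In the wild-type-labelled library B cells (2.48 CPM, 0.0627 to 13.8), neutrophils (3.24 CPM) and T cells (5.32 CPM, 1.10 to 15.6) were lowest. These levels rested on 1 to 3 UMIs each. The B cell and T cell intervals overlapped between the libraries. In cDC1 Ticam1 was lower in the deficient-labelled library, at 27.3 (21.2 to 34.5) against 13.3 (10.8 to 16.2) CPM, a log2 ratio of -1.04 (-1.50 to -0.57). The unthinned share of cDC1 cells with a Ticam1 UMI was 42.0% against 19.3%, at median depths of 20476 and 16799.5 UMIs per cell. For the kinase gene Tbk1 the shares were 47.9% and 48.8%, at 35.2 and 41.0 CPM. These Tbk1 shares therefore do not show equal detection in the libraries. The summed macrophage markers in the cDC1 gate were 80.3 and 227.9 CPM, and their part in this ratio was not tested.

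Tbk1, the kinase gene, was spread over all gates and leaned to granulocytes and monocytes. It stood at 98.2 and 110.4 CPM in neutrophils and at 86.5 and 102.3 CPM in Ly6c-high monocytes, against 63.1 and 65.5 CPM in macrophages and 35.2 and 41.0 CPM in cDC1. Thus the gate with most Ifnb1 was in the middle of the Tbk1 order. Its log2 ratio between libraries lay between 0.05 and 0.30 in the 5 compared gates.

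Irf3, whose product is the direct substrate of the kinase, was low in every phagocyte gate. Macrophages had 14.1 (9.68 to 19.8) and 16.2 (13.4 to 19.4) CPM and Ly6c-high monocytes 8.52 and 11.8 CPM. B cells had 42.1 and 39.8 CPM, and in the deficient-labelled library NK cells or ILC1 (54.5 CPM) and fibroblasts (46.8 CPM) were higher than any phagocyte gate, without overlap. Irf3 and Ifnar2 were the most opposed pair among the 8 genes, with a correlation of -0.68 over the 22 sums.

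Irf5, a factor of inflammatory macrophages and dendritic cells, was highest in cDC1, at 222.3 (204.3 to 241.5) and 274.2 (262.5 to 286.2) CPM. cDC2 followed at 171.9 and 239.4 CPM, and macrophages had 115.9 and 144.4 CPM. T cells (21.3 CPM) were lowest in the wild-type-labelled library and fibroblasts (35.5 CPM) in the deficient-labelled one. The log2 ratio was above 0 in all 5 compared gates, from 0.21 (0.07 to 0.37) in Ly6c-high monocytes to 0.56 (-0.01 to 1.12) in neutrophils, and 0.48 (0.38 to 0.58) in cDC2.

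Irf1, itself interferon-inducible, was highest in monocytes. Ly6c-low monocytes had 178.4 (141.9 to 221.4) and 154.8 (122.9 to 192.4) CPM and Ly6c-high monocytes 143.5 and 128.2 CPM, against 78.8 and 84.6 CPM in macrophages and 51.9 and 52.1 CPM in cDC2. Its ratio between libraries was 0.10 (-0.14 to 0.35) in macrophages and 0.01 (-0.19 to 0.20) in cDC2. The lowest was -0.48 (-0.75 to -0.20) in cDC1.

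**Figure D4:**
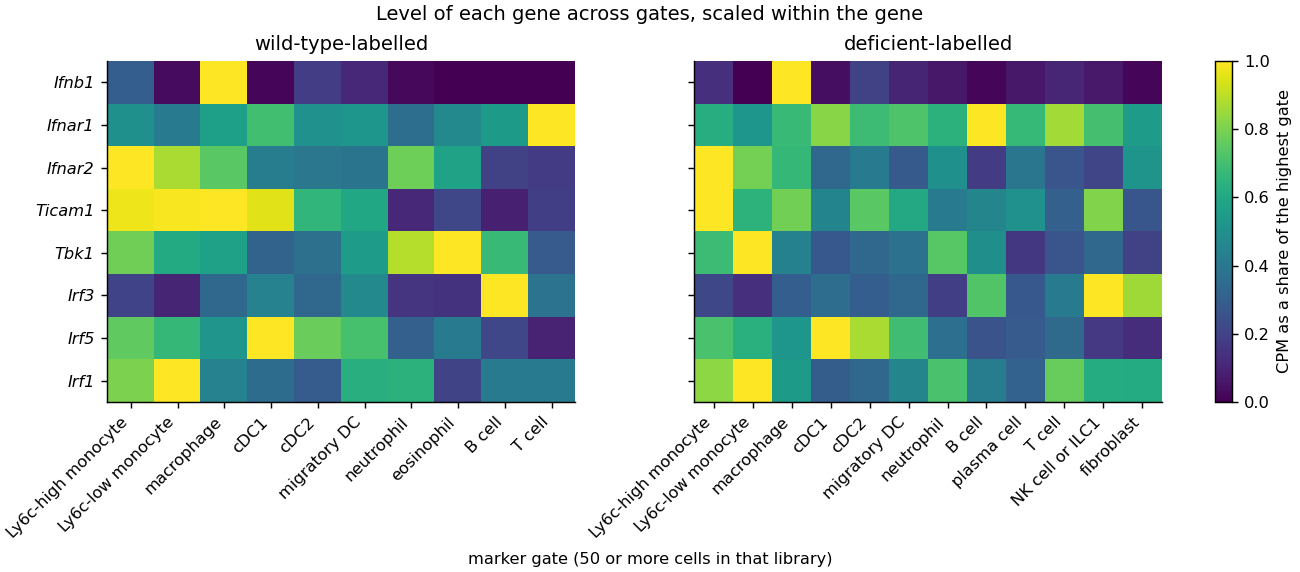
Level of each gene in each marker gate of 50 or more cells, per library, with CPM divided by the highest gate of that gene in that library (colour, 0 to 1), so colours compare gates within a gene and not genes. Ifnb1 is highest in macrophages and low in lymphocyte columns, while Ifnar2 peaks in Ly6c-high monocytes, Irf5 in cDC1, and Irf3 in lymphoid gates.

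The genes whose pattern over the 22 gate sums was most like a given member differed from gene to gene. For Ifnb1 they were Oasl1 (Pearson r 0.87), an interferon-stimulated gene, the chemokine gene Ccl24 (0.83) and Ifih1 (0.83), which encodes the RNA sensor MDA5. For Ifnar2 they were Tgfbi (0.92), Tnfrsf21 (0.91) and Dnase1l1 (0.90), for Ifnar1 Srpk1 (0.86), Slc1a5 (0.78) and Eif2b4 (0.77), and for Irf5 Alcam (0.92), Havcr2 (0.90) and Ggta1 (0.89). For Ticam1 they were Rasa4 (0.82), Tnfsf9 (0.82) and Tmem173 (0.81), the last encoding the DNA-sensing adaptor STING. For Tbk1, Irf3 and Irf1 the first were Slc25a37 (0.91), Aimp2 (0.92) and Clip1 (0.88). The points share libraries and cells of 1 tissue, so these are descriptions.

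Other interferon genes were nearly silent. Of 13 listed interferon alpha genes only Ifna2 (5 UMIs in 3 wild-type-labelled cells) and Ifna4 (1 UMI in 1 deficient-labelled cell) had any UMI. Ifnk had 4 and 8 UMIs, Ifnz 1 and 4, Ifnab 2 and 1, and Ifne, Ifnl2 and Ifnl3 had 0. A count of 0 allows up to 3 UMIs in each library. Ifng, the type II interferon gene, had 259 UMIs in 49 wild-type-labelled and 401 UMIs in 137 deficient-labelled cells, of which 35 and 69 were in the NK cell or ILC1 gate.

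Cells that held Ifnb1 also held more of the genes it is known to induce. The comparison was made 4 times, of Ifnb1-holding cells against the other cells of the macrophage and of the cDC2 gate in each library. They show levels in 1 library at a time, with holding cells somewhat deeper (medians of 8913.5 against 7902 and 8552 against 7851.5 UMIs in macrophages, and 17088 against 14399.5 and 13413 against 11925 UMIs in cDC2). Of the list of 23 interferon-stimulated targets, 8 of 10 measured were more than 1.5-fold higher in the holding macrophages of the wild-type-labelled library, where 21.3% of all genes were past that fold in either direction. In deficient-labelled macrophages it was 11 of 18 (17.4% of all genes), in wild-type-labelled cDC2 10 of 13 (25.5%) and in deficient-labelled cDC2 12 of 17 (31.7%). No list gene was 1.5-fold lower in any of them. The list medians of the log2 ratio were 1.58, 1.13, 2.07 and 1.27, against medians of all genes from -0.08 to -0.03.

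Ifit1, which encodes a sensor of viral RNA, was at 227.9 CPM in the holding and 33.1 CPM in the other macrophages of the wild-type-labelled library (log2 ratio 2.79, 2.33 to 3.25). In deficient-labelled macrophages it was at 127.9 and 15.6 CPM (3.04, 2.64 to 3.44). In cDC2 the ratios were 3.38 (3.10 to 3.66) and 3.78 (3.39 to 4.16). Ifit1 was thus among the 4 leading genes in all 4 comparisons. Rsad2, which encodes the antiviral enzyme viperin, was at 665.2 against 100.9 CPM and 499.5 against 97.1 CPM in macrophages. In cDC2 it was at 206.9 against 20.2 CPM in the wild-type-labelled library.

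Part of the chemokine and cytokine list was higher in the same cells. Of the measured genes, 9 of 15 were past 1.5-fold higher in wild-type-labelled macrophages (7.32% of all genes were higher), 7 of 17 in deficient-labelled macrophages (5.48%), and 10 of 17 in the cDC2 of each library (8.49% and 13.5%), where 2 of 17 were lower. Cxcl10 and Ccl5 are also on the interferon-stimulated list. Other members were within 1.5-fold, such as Il1b (log2 ratio -0.55) and Il6 (-0.41) in wild-type-labelled and Cxcl1 (-0.09) in deficient-labelled macrophages. Ccl4, a chemokine gene of activated macrophages, stood at 15589.3 against 4144.8 CPM and 6518.5 against 1694.2 CPM in macrophages. Ccl5 stood at 1442.7 against 150.3 CPM and 1700.6 against 125.7 CPM in cDC2. Tnf was at 2287.8 against 741.7 CPM and 977.8 against 436.0 CPM in macrophages. Of the 25 wild-type-labelled cells with 10 or more Ifnb1 UMIs, 23 held Tnf, 24 Cxcl10, 25 Isg15 and 14 Il10.

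The sensor gene Ifih1 was also higher in the holding cells, with log2 ratios of 1.53 (1.23 to 1.83) and 1.70 (1.45 to 1.94) in macrophages and 2.01 (1.70 to 2.32) and 2.44 (2.04 to 2.82) in cDC2. The lipopolysaccharide co-receptor gene Cd14 was higher in holding cDC2, at 657.8 against 207.7 CPM and 1014.7 against 455.2 CPM, and within 1.5-fold in macrophages. The summed macrophage markers were higher in holding cDC2 as well, at 388.8 against 212.3 CPM and 666.5 against 330.9 CPM.

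Most holding cDC2 belonged to the cluster led by Mt2 and Mgl2, as given above, so the comparison was repeated inside that cluster, an alternative added after the values were seen. There Cd14 was within 1.5-fold, at 801.1 against 548.7 CPM (log2 ratio 0.55, 0.37 to 0.72) and 937.2 against 840.9 CPM (0.16, -0.01 to 0.32), and the summed macrophage markers were 469.6 against 377.6 CPM and 632.9 against 461.2 CPM. Of the interferon-stimulated targets 7 of 9 measured were higher and 0 lower in the wild-type-labelled library (13.6% of all genes past 1.5-fold), and 8 higher and 1 lower of 11 in the other (23.0%). Cytokine genes were split, with 6 higher and 4 lower of 17, and 8 higher and 2 lower of 16. In the macrophage cluster led by Mmp13 and C1qa, 8 of 9 targets were higher and 0 lower (29.5%), and 9 higher and 1 lower of 14 (21.7%). Other leading genes differed between gates and libraries. In wild-type-labelled macrophages Mmp13 (1247.8 against 290.2 CPM) and Ccl12 (363.0 against 87.2 CPM) were among the first 10, and in deficient-labelled macrophages Il12b (154.1 against 22.1 CPM). The 153 Il12b UMIs came from 7 of 85 holding cells, 65 of them from 1 cell, and in wild-type-labelled macrophages Il12b had 0 UMIs in holding and 25 in other cells. In deficient-labelled macrophages the goblet-cell transcript Mucl1 ranked first on 118 UMIs of a single cell.

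**Figure D5:**
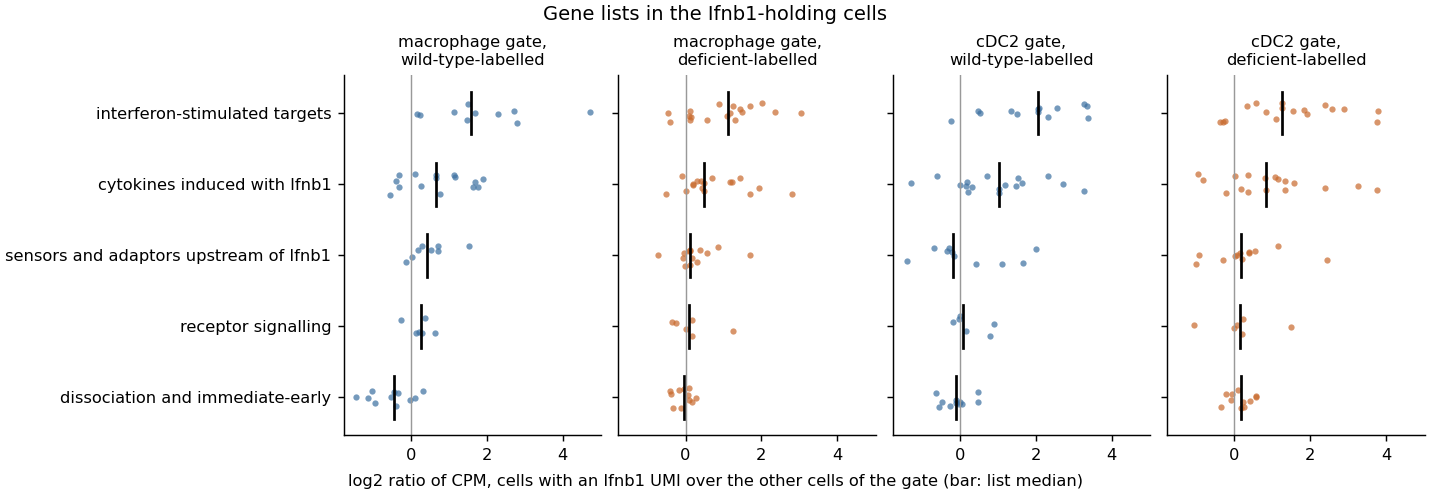
Log2 ratio of CPM between Ifnb1-holding cells and the other cells of the same gate and library, for the measured genes of 5 lists (points) with the list median (bar). The interferon-stimulated list has its medians at 1.58, 1.13, 2.07 and 1.27 from left to right, and the immediate-early list at -0.44, -0.03, -0.10 and 0.18.

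The members themselves set the holding cells apart less. Ifnar2 was lower in holding macrophages of both libraries, at 106.4 against 165.3 CPM (log2 ratio -0.64, -1.05 to -0.24) and 102.7 against 163.0 CPM (-0.67, -0.97 to -0.37), and was the same in cDC2 within counting error (-0.01, -0.44 to 0.40, and 0.00, -0.47 to 0.43). Irf5, Tbk1 and Ticam1 were within 1.5-fold in all 4 comparisons. Irf1 was at -0.86 (-1.49 to -0.28) in wild-type-labelled macrophages, at 0.08 (-0.27 to 0.41) in deficient-labelled macrophages and at 0.88 (0.39 to 1.33) in deficient-labelled cDC2, so it had no common direction. Irf3 had 5 to 15 UMIs in holding cells and was past 1.5-fold only in wild-type-labelled cDC2, at -1.02 (-2.67 to 0.26). Ifnar1 was at -1.10 (-1.92 to -0.39) in deficient-labelled cDC2 on 16 UMIs in holding cells. The summed macrophage markers in holding and other macrophages were 14949.4 and 13885.4 CPM (wild-type-labelled) and 11759.1 and 15699.6 CPM (deficient-labelled). The summed Ly6c-high monocyte markers were 612.9 and 1403.6 CPM, and 723.1 and 818.5 CPM, in the same order, and the part of this in the Ifnar2 ratio was not tested.

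Downstream of the receptor, most measured interferon-stimulated targets were past 1.5-fold lower in the deficient-labelled library in 3 of the 5 compared gates. In Ly6c-high monocytes 14 of 21 measured were lower and 0 higher (median log2 ratio -0.81), where 6.60% of all genes were lower. In cDC1 it was 8 lower and 1 higher of 11 (-0.94; 5.50% of all genes lower) and in neutrophils 8 lower and 0 higher of 12 (-0.69; 12.3%). In cDC2 6 of 18 were lower and 1 higher (-0.44; 4.86%). Macrophages, the main Ifnb1 holders, were split, with 7 lower (5.88% of all genes) and 7 higher (8.49%) of 20 and a median of -0.06. Ifit1 in Ly6c-high monocytes had the most negative ratio of the list in these gates, at 51.4 and 8.54 CPM (log2 ratio -2.59, -3.06 to -2.14). The cluster led by Arg1, Rsad2 and Irf7 made up 10.5% and 4.35% of the Ly6c-high monocyte gate. Its part in the monocyte-gate ratios, here and in the lists below, was not tested. In macrophages Ifit2 was lower (58.8 and 15.5 CPM, -1.92, -2.30 to -1.55), and Oas3 (2.13 and 7.40 CPM, 1.80, 0.48 to 3.48) and Isg20 (3.41 and 9.36 CPM) were higher.

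The macrophage sum can be taken apart by holding status. Summed over the list, holding macrophages had 6042.9 and 3823.7 CPM and the other macrophages 2216.6 and 1644.8 CPM. The chemokine gene Cxcl10, the most abundant member in the other macrophages, was at 867.2 and 332.1 CPM there. Without it the sums were 4128.2 and 2745.2 CPM in holding cells and 1349.5 and 1312.7 CPM in the others. Outside the holding cells nearly all of the net difference in the sum thus lay in 1 gene. Other list genes moved in opposite directions there, such as Ifit1 (33.1 and 15.6 CPM) and Bst2 (155.1 and 251.6 CPM).

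In the remaining pathway lists few genes were past 1.5-fold in macrophages, and more sensors were in Ly6c-high monocytes. Of the 17 sensors and adaptors upstream of Ifnb1, 1 was higher and 1 lower of 15 measured in macrophages, where Ifih1 was at 159.8 and 88.8 CPM (log2 ratio -0.85, -1.03 to -0.66) and Traf3 at 55.8 and 94.5 CPM (0.76, 0.49 to 1.04). In Ly6c-high monocytes 5 of 14 were lower and 1 higher, against 13.7% of all genes past that fold. Ddx58, which encodes the RNA sensor RIG-I, was at 39.0 and 17.1 CPM (-1.19, -1.58 to -0.81), and Tlr4, the lipopolysaccharide receptor gene, at 6.88 and 10.6 CPM (0.62, -0.11 to 1.40). Of the kinases and factors acting with Tbk1 and Irf3, 0 of 12 were past 1.5-fold in macrophages and 2 of 11 in Ly6c-high monocytes, Irf7 lower (165.1 and 94.5 CPM, -0.81, -0.98 to -0.63) and Ikbke higher (33.8 and 51.7 CPM, 0.61, 0.29 to 0.95). Of the 6 receptor signalling genes, Irf9 was higher in macrophages (21.7 and 37.3 CPM, 0.78, 0.34 to 1.24) and Stat2 lower in Ly6c-high monocytes (46.5 and 24.2 CPM, -0.94, -1.28 to -0.60). Of the feedback inhibitors, Isg15 was lower in macrophages (425.8 and 213.4 CPM, log2 interval -1.11 to -0.88) and Socs3 higher (199.5 and 321.8 CPM, 0.69, 0.55 to 0.84), and 2 of 7, Usp18 (29.2 and 9.47 CPM) and Isg15 (367.3 and 169.2 CPM), were lower in Ly6c-high monocytes.

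Immediate-early and heat-shock genes, which tissue dissociation is known to induce, had few members past 1.5-fold between the libraries in macrophages and cDC2. Their sum was 8938.9 and 7106.3 CPM in macrophages, where Egr1 was lower in the deficient-labelled library (708.8 and 284.5 CPM, log2 ratio -1.32, -1.41 to -1.22) and 2 of 11 genes were past 1.5-fold lower (14.4% of all genes past it either way). In Ly6c-high monocytes 4 of 11 were lower (13.7%). In cDC2 the sums were 5447.1 and 5524.8 CPM and 2 of 11 were higher (10.7%), among them Hspa1a (257.2 and 825.0 CPM, 1.68, 1.61 to 1.76). Between Ifnb1-holding and other cells of 1 library the median log2 ratio of the list was -0.44 and -0.03 in macrophages and -0.10 and 0.18 in cDC2. The part of these values in the Ifnb1 ratios between libraries was not tested.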

How the data were processed

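UMI counts per gene and cell barcode were deposited by the authors as 10x matrices; per the submitters' processing notes the tools were STAR 2.5.1b and Cell Ranger and the build mm10, and per the file headers with software version 3.0.2. The library kit was the 10x Single Cell 3' V3 chemistry, per the labels' protocols. Cells needed 500 UMIs, 200 genes and a mitochondrial share of no more than 20% to be kept (2604 of 3020 and 5888 of 6133). Scrublet called 6 and 2 doublets, too few for it to have worked, so removal by score rank was run as an alternative. A cell took the gate of the marker list with the highest mean scaled log level among 22 lists, if at least 3 markers had a UMI, the score was at least 0.15 and the margin at least 0.02; this rule was set after the values were seen. It gave 1989 and 4830 cells a gate, and 615 and 1058 stayed ungated.

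Counts were summed per gate and library as counts per 1000000 UMIs (CPM), with exact Poisson intervals, Clopper-Pearson intervals for shares, and the exact conditional binomial interval for ratios, all at 95%. UMIs of 1 library are not replicates, so no test was made. Ratios between libraries were taken in gates with at least 100 cells in each library and for genes with at least 50 UMIs, and genes were counted past 1.5-fold; levels are given in gates of at least 50 cells. A count of 0 was given an upper limit of 3 counts. The ratio and its interval were tested on simulated data with independent Poisson counts per gene. Such counts do not represent a transcript concentrated in few cells, as Ifnb1 was. The members, marker lists and 9 gene lists were chosen with earlier results of these data known. Named were all 8 members, from each list up to 3 genes of largest ratio, the 3 genes of most similar pattern (log2(CPM + 10), genes of at least 500 UMIs), and up to 10 leading genes of Ifnb1-holding cells with at least 20 UMIs there; Tnf, Isg15, Cd14, Ifih1, Rsad2 and Ccl4 beside other comparisons, and the cells with 10 or more Ifnb1 UMIs, were chosen after their values were seen. Promoters are RefSeq's (GRCm38.p6) and positions GENCODE's (vM21). Python 3.11.15, scanpy 1.11.5, numpy 2.4.6 and scipy 1.17.1 were used.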

Additional observations from a re-analysis of the deposited data

Results flagged for a closer look

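Ifnb1 UMIs also appeared in barcodes that the cell filter left out of every comparison. In the wild-type-labelled library 10 of 416 such barcodes held 19 Ifnb1 UMIs, at most 5 in 1 barcode, and in the deficient-labelled library 3 of 245 held 4. They are given because no comparison uses these barcodes, and they were not compared with an empty-droplet level. The 10 and 3 barcodes that held Ifnb1 had a median mitochondrial share of 24.0% and 23.0%, and the other left-out barcodes 34.4% and 29.8%.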

How the results depend on the processing

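The Ifnb1 ratio stayed below 0 and past 1.5-fold in the 3 gates and over all cells in every one of 44 values under the alternatives. In macrophages it ranged from -2.37 to -2.16. In cDC2 it was -3.39 with a stricter gate margin, and the share of deficient-labelled cDC2 cells was then 2.26%. Over all cells it was -2.05 as a mean over cells. The alternatives that leave out cells, barcodes or clusters were chosen after seeing the data. Without the cell with most Ifnb1 UMIs in each gate and library it was -1.56 in Ly6c-high monocytes and -2.04 over all cells, and without the interferon-led cluster -0.80 and -2.02. Leaving out shared barcodes or the mixed T cell-led cluster left these values inside their intervals. With Leiden clusters in place of gates 31.1% of wild-type-labelled and 13.3% of deficient-labelled macrophages held Ifnb1, and with cells thinned to 2000 UMIs 15.3% and 5.79%. The count of 5 values past 1.5-fold was 4 to 7 under the alternatives, within 1.5 times. Of 440 values for the other members, 432 stayed within their counting interval and 8 moved; the called ratios, Ticam1 in cDC1 and Ifnar1 in neutrophils, ranged from -1.13 to -0.87 and from 0.36 (mean over cells) to 0.92. No paired analysis was possible because each group is 1 library. The number of cells limits what can be said of gates with under 100 cells, and the number of Ifnb1 UMIs what can be said of it in cDC1 and neutrophils.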
